A study of Mus musculus with 6 samples.

Results

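The BCL2 family genes described here were 10 of the 24214 RefSeq features counted in 393P_vector and 393P_ZEB1 cells, made from an epithelial line of murine lung adenocarcinoma. ZEB1 is a transcription factor that represses epithelial genes and drives epithelial-to-mesenchymal transition. They were chosen by symbol, and each symbol was found in 1 row of every table. The labels call the cells KP lung cancer cells, give their strain as C57BL/6, and describe them as grown in RPMI-1640 with FCS. The 3 samples of 393P_ZEB1 cells carried a ZEB1 expression vector, and the 3 samples of 393P_vector cells, the controls, carried the empty vector. Both groups are transfectants of the same line, and whether the 3 samples of a group came from separate transfections is not given, so p-values measure only the spread between these samples.

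Proteins of the BCL2 family decide whether the outer mitochondrial membrane stays intact. Survival members (BCL-2, BCL-XL, BCL-W and MCL-1) bind and hold back the pore formers BAK and BAX. BH3-only members (BIM, BMF, BID, BAD and BIK) either engage the pore formers or occupy the survival proteins, and an open pore releases cytochrome c and starts the caspase cascade. The 10 genes comprised 4 survival members (Bcl2, Bcl2l1, Bcl2l2, Mcl1), the pore former Bak1 and 5 BH3-only members (Bcl2l11, Bmf, Bid, Bad, Bik). Only RNA was measured, so protein, phosphorylation and splice forms such as the long and short products of Bcl2l1 and Mcl1 are outside these values.

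Total counts ranged from 57844355 to 79158012 in 393P_vector and from 54442450 to 61251074 in 393P_ZEB1 samples, and 3 counts, the floor used for detection, equalled between 0.0361 and 0.0561 CPM (counts scaled to a common library size with TMM factors). Zeb1 was at 21.2, 22.0 and 21.4 CPM in the vector samples and at 54.9, 48.9 and 51.3 CPM in the ZEB1 samples, a log2 fold change of 1.26 (SE 0.10, edgeR adjusted p = 6.06e-05). Any vector-derived reads that align to Zeb1 are included, and genes of chromosome 18, where it lies, had a median log2 fold change of 0.64. Of 8 epithelial markers 7 fell, among them Cdh1 from 162 ± 61.2 to 9.51 ± 0.718 CPM and Epcam from 122 ± 51.8 to 1.31 ± 0.611 CPM (SD, n = 3). Of 7 mesenchymal markers 5 rose, among them Vim from 5508 ± 335 to 7330 ± 493 CPM and Fn1 from 2417 ± 174 to 3573 ± 175 CPM (SD, n = 3). The lung lineage genes Nkx2-1, Sftpc, Sftpb, Scgb1a1 and Napsa, looked up after other values were seen, reached at most 0.0602 CPM in any sample. Marker sums were between 0.846 and 4.12 CPM for leukocytes, endothelium and fibroblasts in all samples, and 1 leukocyte marker, Adgre1, had no row of that name. 393P_vector replicate 3 stood apart. Its counts differed from those of vector replicates 1 and 2 by a chi-square per degree of freedom of 303 and 332, against 21.1 between the other vector pair and 32.0 to 56.9 between ZEB1 pairs, so no pair agreed within sampling noise.

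Ectopic ZEB1 went with opposite changes inside the family. Bmf rose 4.04-fold and Mcl1 rose 1.42-fold, whereas Bak1 fell to 0.552 and Bid to 0.765 of the vector level. The other 5 tested members did not pass the threshold, and Bik had too few reads to be tested. Thus 2 members were higher and 2 lower among the 9 tested, or 44.4%, where 37.6% of all 13892 tested genes passed in either direction (18.3% higher and 19.3% lower). The threshold was an adjusted p below 0.05 from edgeR's quasi-likelihood test with Benjamini-Hochberg adjustment over all tested genes. The share of members was near that of all genes, and the median log2 fold change was 0.07 over the 9 members and -0.02 over all tested genes. The groups did not overlap for 6 of the 9 tested members (66.7%), where 52.8% of all tested genes had groups that did not overlap. In bulk RNA, fewer cells with a transcript and less of it per cell cannot be told apart.

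The 250 bases before the RefSeq start site nearest the counted 5′ end of the 4 changed members are shown, because a transcription factor was altered in these cells and ZEB1 is known to bind E-box motifs. Sequences are from RefSeq on GRCm38.p6, 5′ to 3′ on the strand of the gene, and capitals mark a match on either strand to CACCTG or TACCTG. Bmf is the reverse strand at chr2:118549687-118549936, Mcl1 the forward strand at chr3:95658471-95658720, Bak1 the reverse strand at chr17:27028628-27028877 and Bid the reverse strand at chr6:120916825-120917074.
Bmf: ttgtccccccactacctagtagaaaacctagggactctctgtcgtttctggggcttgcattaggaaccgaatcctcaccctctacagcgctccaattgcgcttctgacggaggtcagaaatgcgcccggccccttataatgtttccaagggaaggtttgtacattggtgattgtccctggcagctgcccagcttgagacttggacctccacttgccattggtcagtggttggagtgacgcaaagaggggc
Mcl1: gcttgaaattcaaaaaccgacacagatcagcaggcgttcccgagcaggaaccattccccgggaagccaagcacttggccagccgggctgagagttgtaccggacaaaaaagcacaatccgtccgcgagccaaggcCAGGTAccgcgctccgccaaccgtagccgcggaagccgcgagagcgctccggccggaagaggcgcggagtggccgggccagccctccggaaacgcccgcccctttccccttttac
Bak1: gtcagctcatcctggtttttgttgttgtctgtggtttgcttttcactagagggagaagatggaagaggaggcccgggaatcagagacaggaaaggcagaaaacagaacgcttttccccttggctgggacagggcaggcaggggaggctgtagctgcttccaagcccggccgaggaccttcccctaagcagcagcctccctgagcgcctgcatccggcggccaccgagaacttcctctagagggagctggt
Bid: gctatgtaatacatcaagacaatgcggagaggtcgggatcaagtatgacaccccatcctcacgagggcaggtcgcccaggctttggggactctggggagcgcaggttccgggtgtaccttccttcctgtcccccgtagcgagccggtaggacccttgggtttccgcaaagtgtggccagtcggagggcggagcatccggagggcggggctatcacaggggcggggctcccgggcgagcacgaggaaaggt
Among these 4 windows only that of Mcl1 held such a match, a TACCTG on the reverse strand, printed as CAGGTA, that begins 115 bases before the start site. Over 9 members with a promoter in the table (15 start sites), CACCTG occurred once, at Bad, and TACCTG at Bcl2l11 and Mcl1. Of all 32851 promoter windows of that length, 17.2% held CACCTG and 10.0% held TACCTG on either strand. The FOXO motif TGTTTAC was present at Bcl2l11 alone among members and in 3.17% of all windows. The GC box GGGCGG was present in 7 of the 15 member windows and in 32.7% of all windows. The windows shown differed in composition, from 54.0% GC and 8 CpG at Bmf and 58.4% GC and 8 CpG at Bak1 to 63.6% GC and 18 CpG at Bid and 64.4% GC and 26 CpG at Mcl1, where the median of all windows was 52.4% GC and 6 CpG. A match is a run of letters and not a measured binding site. Bmf has 3 start sites in the table, and the counts do not tell which was used.

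Levels of different genes were compared as CPM per kilobase of exon. In 393P_vector cells Bcl2l1 was the most abundant member at 132 ± 26.4, followed by Bak1 at 58.8 ± 7.71 and Mcl1 at 55.5 ± 4.30 CPM per kb (SD, n = 3). The sample ranges of Bak1 and Mcl1 overlapped, so their order was not resolved. Bid was at 34.7 ± 1.15, Bad at 15.1 ± 1.30, Bcl2l2 at 12.8 ± 4.39 and Bcl2l11 at 11.2 ± 2.01 CPM per kb, and Bcl2l2 overlapped both Bad and Bcl2l11. Bcl2 followed at 6.55 ± 0.512, then Bmf at 0.924 ± 0.282 and Bik at 0.240 ± 0.0878 CPM per kb. In 393P_ZEB1 cells the order was the same except that Mcl1, at 78.7 ± 7.89 CPM per kb, lay above Bak1, at 32.4 ± 5.69, with no overlap of samples. The range of Bak1 then overlapped that of Bid, at 26.6 ± 1.52 CPM per kb.

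**Figure D1:**
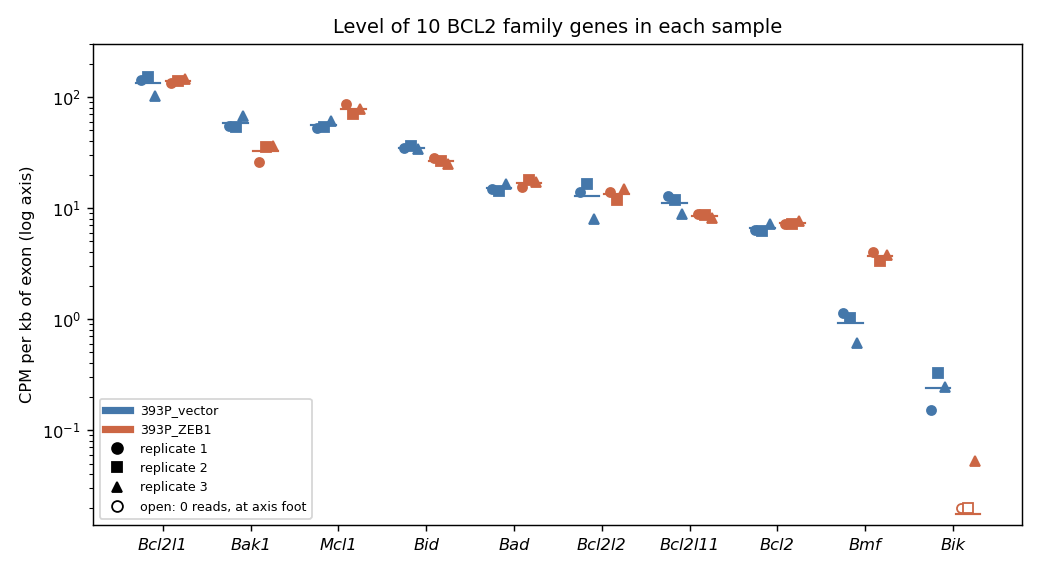
Level of each member in each of the 6 samples, in CPM per kb of exon on a log axis. Points are samples (blue 393P_vector, orange 393P_ZEB1), lines are group means, and open points at the foot of the axis are samples with 0 reads. Bcl2l1 is highest in both groups, and Bmf is the member with the widest gap upwards, from 0.924 to 3.72 CPM per kb.

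Among survival members, only Mcl1 passed the threshold. A difference in response between Mcl1 and the other survival members was not tested. Mcl1, on chromosome 3 from 95658721 to 95663178, encodes a short-lived survival protein that binds BAK and BIM. It was at 182, 188 and 210 CPM in the vector samples and at 302, 247 and 274 CPM in the ZEB1 samples. Every ZEB1 sample lay above every vector sample. Its log2 fold change was 0.50 (SE 0.12, 95% interval 0.23 to 0.77, edgeR adjusted p = 0.0115), and it was 0.44 above the median of the other 677 tested genes on its chromosome.

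Bcl2l1, on chromosome 2 from 152780668 to 152831682, encodes BCL-XL. It was at 339, 360 and 242 CPM in vector samples and at 316, 332 and 342 CPM in ZEB1 samples. The vector samples spanned the ZEB1 samples and replicate 3 was low. Its log2 fold change was 0.07 (95% interval -0.29 to 0.44, edgeR adjusted p = 0.740) and -0.08 without vector replicate 3 (edgeR adjusted p = 0.396).

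Bcl2l2, on chromosome 14 from 54883425 to 54888234, encodes BCL-W and had the widest spread. It was at 48.5, 56.8 and 27.4 CPM in vector samples and at 47.8, 40.4 and 51.0 CPM in ZEB1 samples. Vector replicate 3 was again the lowest sample and the groups overlapped. A log2 fold change of 0.07 was fitted (95% interval -0.52 to 0.66, edgeR adjusted p = 0.852), and -0.18 without vector replicate 3 (edgeR adjusted p = 0.206).

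Bcl2, on chromosome 1 from 106538179 to 106714290, the founding member of the family, was at 49.3, 47.5 and 55.1 CPM in vector samples and at 55.8, 55.9 and 59.7 CPM in ZEB1 samples. The groups did not overlap, by a margin of 0.71 CPM between vector replicate 3 and ZEB1 replicate 1. Its log2 fold change of 0.17 (95% interval -0.07 to 0.42) did not pass (edgeR adjusted p = 0.235), and without vector replicate 3 it was 0.24 and passed (edgeR adjusted p = 0.0307).

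Bak1, on chromosome 17 from 27019812 to 27028626, encodes BAK, which sits in the outer mitochondrial membrane and forms pores when activated. It was at 110, 107 and 135 CPM in vector samples and at 51.6, 70.8 and 71.7 CPM in ZEB1 samples. All ZEB1 samples were below all vector samples, and the nearest pair was 35.2 CPM apart. The log2 fold change was -0.86 (SE 0.16, 95% interval -1.23 to -0.48, edgeR adjusted p = 0.00467). The other 674 tested genes of chromosome 17 had a median of -0.43, and Bak1 was a further 0.43 below it on the log2 scale. What part of the change Bak1 shares with its chromosome was not tested. Ggnbp1, on the opposite strand across all of Bak1, was at 0.555 CPM in vector and 0.554 CPM in ZEB1 samples.

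The BH3-only genes moved in different directions. Bmf, on chromosome 2 from 118528757 to 118549678, encodes a protein that is held on the actin-based cytoskeleton through dynein light chain 2 in attached cells and is known for its part in death after detachment. Bmf was at 5.28, 4.74 and 2.80 CPM in vector samples and at 18.7, 15.4 and 17.5 CPM in ZEB1 samples. The lowest ZEB1 sample was above the highest vector sample by 10.1 CPM. The log2 fold change was 2.01 (SE 0.24, 95% interval 1.45 to 2.58, edgeR adjusted p = 0.000502), and 1.78 without vector replicate 3, its lowest sample (edgeR adjusted p = 2.09e-06). The median of the other 1106 tested genes of chromosome 2 was -0.05.

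Bcl2l11, also on chromosome 2, from 128126038 to 128162547, encodes BIM, which binds all survival members. It was at 64.6, 58.8 and 44.9 CPM in vector samples and at 44.4, 43.6 and 41.0 CPM in ZEB1 samples. The ZEB1 samples were all lower, but vector replicate 3 was only 0.54 CPM above the highest of them. The log2 fold change of -0.38 (SE 0.15, 95% interval -0.73 to -0.04) did not pass (edgeR adjusted p = 0.0783). Without vector replicate 3 it was -0.52 and passed (edgeR adjusted p = 0.00052), so that sample decided the call.

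Bid, on chromosome 6 from 120893119 to 120916820, encodes the protein that caspase-8 cuts to pass a death receptor signal to mitochondria. It was at 65.0, 67.8 and 63.5 CPM in vector samples and at 52.8, 50.3 and 47.1 CPM in ZEB1 samples. The groups were apart by 10.7 CPM with little spread inside each. The log2 fold change was -0.39 (SE 0.10, 95% interval -0.62 to -0.15, edgeR adjusted p = 0.0192). The other 669 tested genes on chromosome 6 had a median of -0.36, so Bid differed from its chromosome by -0.03. The call was lost without vector replicate 1 or 2 or ZEB1 replicate 2 or 3, with edgeR adjusted p between 0.0651 and 0.1001 and log2 fold changes between -0.39 and -0.33.

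Bad, on chromosome 19 from 6941855 to 6951893, encodes a BH3-only protein that is kept inactive by phosphorylation and 14-3-3 binding. It was at 21.3, 20.5 and 24.04 CPM in vector samples and at 22.6, 25.8 and 25.03 CPM in ZEB1 samples. The groups overlapped, with a log2 fold change of 0.16 (95% interval -0.12 to 0.44, edgeR adjusted p = 0.341). Gpr137 overlaps Bad by 596 bases on the opposite strand at 22.1 CPM, and reads there cannot be told apart because the use of strand in counting is not given.

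Bik, on chromosome 15 from 83526862 to 83544635, encodes a BH3-only protein of the endoplasmic reticulum. It had 8, 18 and 19 counts in vector samples and 0, 0 and 3 counts in ZEB1 samples. No ZEB1 sample was above the floor of 3 counts, while all vector samples were. Over pooled counts, 45 against 3, the vector level was 12.9 times the ZEB1 level (95% exact binomial interval 4.13 to 64.7, counting error only). Tested genes of chromosome 15 had a median log2 fold change of -0.33, and what part Bik shares with them was not tested. Bik did not pass the filter on low counts. When no filter was applied its edgeR adjusted p was 0.00796. It passed the filter in 4 of the 6 fits that left out a sample, each time through the vector samples alone, where it was high, so no call is drawn from those fits.

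**Figure D2:**
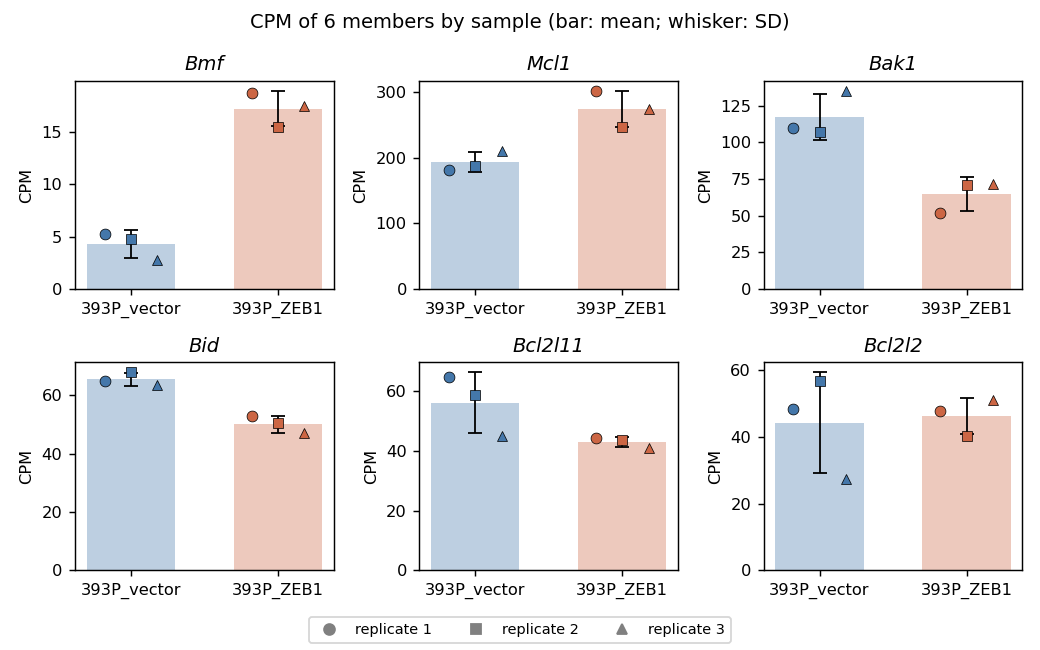
CPM of 6 members in each sample, with bars for the group mean and whiskers for the SD (n = 3), from 0 on each axis. Bmf and Mcl1 are higher and Bak1 and Bid lower in all 393P_ZEB1 samples. In Bcl2l11 and Bcl2l2, 393P_vector replicate 3, drawn as a triangle, lies below the other vector samples at 44.9 and 27.4 CPM.

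For the 6 tested members whose groups did not overlap the exact two-sided permutation p over log2 CPM was 0.1, the smallest that 3 against 3 samples can give. This value follows from the lack of overlap. The same exact permutation test gave 0.2 for Bad and 0.9 for Bcl2l1 and Bcl2l2. For Bik it was not computed, because samples had 0 counts.

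**Figure D3:**
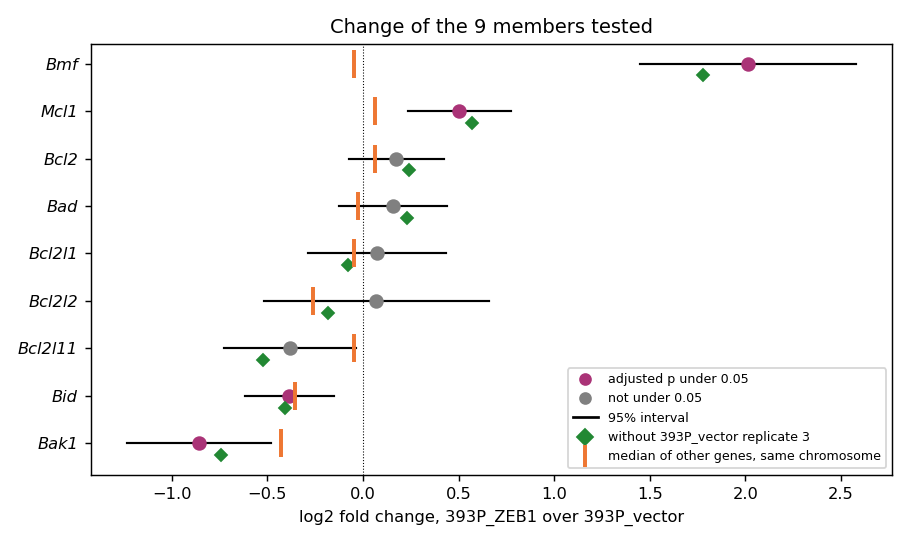
Log2 fold change of the 9 tested members, 393P_ZEB1 over 393P_vector, with 95% intervals (purple: adjusted p under 0.05). Diamonds leave out 393P_vector replicate 3, and orange ticks are the median of the other tested genes on the same chromosome. The tick of Bid, at -0.36, lies beside its value of -0.39, while that of Bmf, at -0.05, lies far from 2.01.

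Summed over members, survival genes were at 216, 228 and 178 CPM per kb in vector samples and at 241, 230 and 246 CPM per kb in ZEB1 samples. Bak1 and the BH3-only genes together were at 118, 117 and 128 CPM per kb in vector samples and at 82.3, 92.0 and 90.2 CPM per kb in ZEB1 samples. Their ratio was 1.72 ± 0.295 in vector and 2.72 ± 0.215 in ZEB1 samples (SD, n = 3). By sample the ratio was 1.82, 1.96 and 1.39 in vector and 2.93, 2.50 and 2.72 in ZEB1 samples. Vector replicate 3, which stood apart, thus had the lowest ratio, with the lowest survival sum and the highest death sum. Without Bak1 the death members summed to 62.2 ± 1.82 and 55.7 ± 1.29 CPM per kb, and the ratio was 3.33 ± 0.336 and 4.29 ± 0.227 (SD, n = 3). Vector replicate 3 was again lowest in that ratio, at 2.96. Death genes of the family outside the members are left out of these sums. In vector and ZEB1 cells Bok was at 55.0 and 38.5 and Bax at 27.7 and 21.6 CPM per kb. Pmaip1 was at 13.1 and 8.82, and Bbc3 at 1.49 and 1.94 CPM per kb. The ratios therefore do not compare survival and death genes of the whole family. Bcl2l1 made up 40.1% of the members' summed level in vector cells and 42.6% in ZEB1 cells. Bak1 made up 18.1% and 9.90%, Mcl1 17% and 24.1%, and Bmf 0.279% and 1.14%. Bmf, with the largest fold change among tested members, was thus a small part of the sum in both groups. These sums are of RNA and carry no test.

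Across the 6 samples, the genes of at least 5 CPM whose log2 CPM followed that of Bmf most closely were Mxra8, Daglb and Itpr2 (Pearson r = 0.9994, 0.9989 and 0.9989). These points are 2 groups of 3 samples from the same libraries, so any gene that differs between the groups has a high r. Their log2 fold changes were 0.88, 1.19 and 1.12, all smaller than that of Bmf.

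Other genes of the pathway were read from 8 lists, chosen with earlier results of these data known. The lists held 102 genes, of which 83 could be tested. Among these, 21 were higher, 12 were lower and 50 did not pass. The share that passed was 39.8%, where 37.6% of all tested genes did, and the median log2 fold change was 0.03. The higher genes include Bcl2l14, Casp12 and Naip6, which passed the filter on low counts only through the ZEB1 samples. By list the share was 45.5% for further BCL2 family genes, 11.1% for apoptosome proteins, 71.4% for caspases and 62.5% for inhibitors of apoptosis. For the death receptor pathway it was 50%, for binding partners 18.8%, for transcription factors 28.6% and for kinases 46.7%. Without vector replicate 3, 53.0% of all tested genes passed, and 30 genes of the lists were higher and 20 lower. By list, the numbers without that sample were 2 higher and 4 lower for further BCL2 family genes, 1 and 1 for apoptosome proteins, 6 and 1 for caspases, and 5 and 1 for inhibitors of apoptosis. They were 5 and 3 for the death receptor pathway, 4 and 3 for binding partners and 7 and 3 for kinases, and 4 transcription factors were lower.

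Of 17 further BCL2 family genes 11 could be tested, 2 rose and 3 fell (median log2 fold change -0.16). Bcl2l15, a little-studied family member, fell from 13.2 ± 5.56 to 1.38 ± 0.164 CPM (SD, n = 3, log2 fold change -3.26, edgeR adjusted p = 0.000166). Bcl2l14, counted among those that rose, had 8, 7 and 16 counts in vector samples and 92, 96 and 103 counts in ZEB1 samples. It passed the filter on low counts only because of the ZEB1 samples, where it was high, and a low gene that passes in this way had to differ. Pmaip1, which encodes the MCL-1 antagonist NOXA, was at 35.6, 35.1 and 33.6 CPM in vector samples and at 24.5, 23.1 and 22.6 CPM in ZEB1 samples. It fell by 0.57 on the log2 scale (edgeR adjusted p = 0.00381), although it lies on chromosome 18, whose median was 0.64. The BAK-related gene Bok fell by 0.52 on the log2 scale (edgeR adjusted p = 0.0331). The call on Bok was lost without vector replicate 1 or 2 or ZEB1 replicate 1 or 2 (log2 fold change -0.53 to -0.37, edgeR adjusted p 0.0716 to 0.0917). The autophagy gene Becn1, whose product has a BH3 domain, rose by 0.57 on the log2 scale (edgeR adjusted p = 0.0149), a call lost without ZEB1 replicate 3 (0.52, edgeR adjusted p = 0.0622).

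Bax, the other main pore former, did not follow Bak1 past the threshold. It was at 17.5, 19.9 and 34.3 CPM in vector samples and at 14.1, 18.96 and 22.9 CPM in ZEB1 samples. The groups overlapped, with a log2 fold change of -0.36 (SE 0.28, edgeR adjusted p = 0.356). Without vector replicate 3 the log2 fold change of Bax was -0.0032 (edgeR adjusted p = 0.991), and a difference between Bax and Bak1 in response was not tested. Bbc3, which encodes PUMA, had a log2 fold change of 0.39 (edgeR adjusted p = 0.127), and 0.26 without that sample (edgeR adjusted p = 0.176). The values were -0.14 for Bcl2l12, -0.16 for Bnip3, 0.00 for Bnip3l and -0.25 for Bcl2l13 (edgeR adjusted p 0.471, 0.566, 0.995 and 0.114), and without vector replicate 3 Bcl2l13 passed (-0.34, edgeR adjusted p = 0.0025) and Bnip3 was 0.020 (edgeR adjusted p = 0.928). Hrk was at 0.188 and 0.197 CPM on average. Bcl2a1a, Bcl2a1b, Bcl2a1c, Bcl2a1d and Bcl2l10 had at most 4 counts in any sample, and reads of the near-identical Bcl2a1 copies may be split or lost.

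Downstream of the mitochondrion, 4 of 7 tested caspase genes rose and 1 fell, or 71.4%, where 37.6% of all tested genes passed. This count and the median log2 fold change of 0.64 include Casp12, whose call carries no weight for the reason given below. Casp9, the initiator activated on the apoptosome, rose from 20.2 ± 3.07 to 32.5 ± 1.99 CPM (SD, n = 3, edgeR adjusted p = 0.00744). Casp6 rose by 0.64 on the log2 scale (edgeR adjusted p = 0.00437). Casp12, also counted as higher, had 4, 13 and 11 counts in vector samples and 154, 141 and 202 counts in ZEB1 samples, and it too passed the filter only because of the ZEB1 samples. In the list of apoptosome and released mitochondrial proteins, 1 of 9 tested genes changed. It was Endog, a mitochondrial nuclease, which fell from 8.16 ± 1.67 to 3.12 ± 1.23 CPM (SD, n = 3, edgeR adjusted p = 0.00942).

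Inhibitor of apoptosis genes included 4 that rose and 1 that fell among 8 tested, or 62.5%, where 37.6% of all tested genes passed. Naip1, Naip2 and Naip6 were among those that rose and entered the median log2 fold change of 0.93. The summed level of the list was 626 to 730 CPM in vector samples and 593 to 636 CPM in ZEB1 samples. Birc3, which encodes cIAP2, rose from 4.51 ± 0.125 to 11.7 ± 1.21 CPM (SD, n = 3, edgeR adjusted p = 0.000201). Naip2 and Naip1 rose by 3.55 and 3.06 on the log2 scale (edgeR adjusted p = 3.48e-06 and 9.7e-05). Naip genes are close copies of each other and are known as sensors of bacterial proteins as well as by this family name, so which copy changed is uncertain. Naip6, also among the 4, had 9, 5 and 5 counts in vector samples and passed the filter only because of the ZEB1 samples, at 32, 13 and 21 counts. Birc6, a giant ubiquitin ligase, fell from 409 ± 40.5 to 244 ± 11.7 CPM (SD, n = 3, edgeR adjusted p = 0.00145). Birc6 lies on chromosome 17, whose median was -0.43, and was 0.32 below that median on the log2 scale.

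In the death receptor list 4 of 10 tested genes rose and 1 fell (median log2 fold change 0.21). Tnfrsf10b, the mouse TRAIL receptor, fell from 63.9 ± 5.57 to 28.2 ± 2.56 CPM, and Tnfrsf1b, the second TNF receptor, rose from 12.1 ± 1.56 to 24.4 ± 0.293 CPM (SD, n = 3, edgeR adjusted p = 0.000214 and 0.000745). The adaptor kinase Ripk1 rose by 0.47 on the log2 scale (edgeR adjusted p = 0.00697). The adaptor Tradd was at the threshold, with 0.43 (edgeR adjusted p = 0.0496). Its call was lost without vector replicate 1 or any 1 ZEB1 replicate (log2 fold change 0.35 to 0.52, edgeR adjusted p 0.0579 to 0.169).

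Among 16 tested genes for binding partners and turnover of members, 2 rose and 1 fell, and the median was 0.00. Sfn, which encodes the epithelial 14-3-3 sigma protein, fell from 32.1 ± 10.4 to 0.478 ± 0.0846 CPM (SD, n = 3, log2 fold change -6.06, edgeR adjusted p = 7.13e-06). Ywhah and Ywhab, other 14-3-3 genes, rose by 0.76 and 0.48 on the log2 scale (edgeR adjusted p = 0.0019 and 0.0286). The call on Ywhab was lost without any 1 ZEB1 replicate (log2 fold change 0.41 to 0.53, edgeR adjusted p 0.0564 to 0.102). Dynll2 and Dynll1, the light chains that hold BMF and BIM, had log2 fold changes of 0.47 and -0.31 and did not pass (edgeR adjusted p = 0.104 and 0.202).

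Of 7 tested transcription factors known to act on BH3-only genes, 2 fell (median log2 fold change -0.32). Foxo3, an activator of Bcl2l11 in many cells, fell from 29.7 ± 3.66 to 14.6 ± 2.12 CPM (SD, n = 3, log2 fold change -1.02, edgeR adjusted p = 0.00175). Foxo3 lies on chromosome 10, whose median was -0.29. Foxo1 fell by 0.56 on the log2 scale (edgeR adjusted p = 0.025), a call lost without vector replicate 1 or ZEB1 replicate 2 or 3 (log2 fold change -0.57 to -0.49, edgeR adjusted p 0.0572 to 0.105).

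Of 15 kinase genes 5 rose and 2 fell (median log2 fold change 0.23). Pim1, which encodes a survival kinase that phosphorylates BAD, fell from 49.3 ± 3.97 to 16.5 ± 1.59 CPM (SD, n = 3, log2 fold change -1.58, edgeR adjusted p = 5.1e-05) and was 1.15 below the median of its chromosome 17. Pim2 fell by 0.75 on the log2 scale (edgeR adjusted p = 0.0168), a call lost without vector replicate 1 or ZEB1 replicate 1 or 3 (log2 fold change -0.70 to -0.65, edgeR adjusted p 0.0629 to 0.0738). Mapk3, which encodes ERK1, rose from 64.7 ± 7.61 to 135 ± 12.4 CPM, and Pak1 rose from 27.6 ± 2.61 to 44.8 ± 3.60 CPM (SD, n = 3, edgeR adjusted p = 0.000456 and 0.00314).

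**Figure D4:**
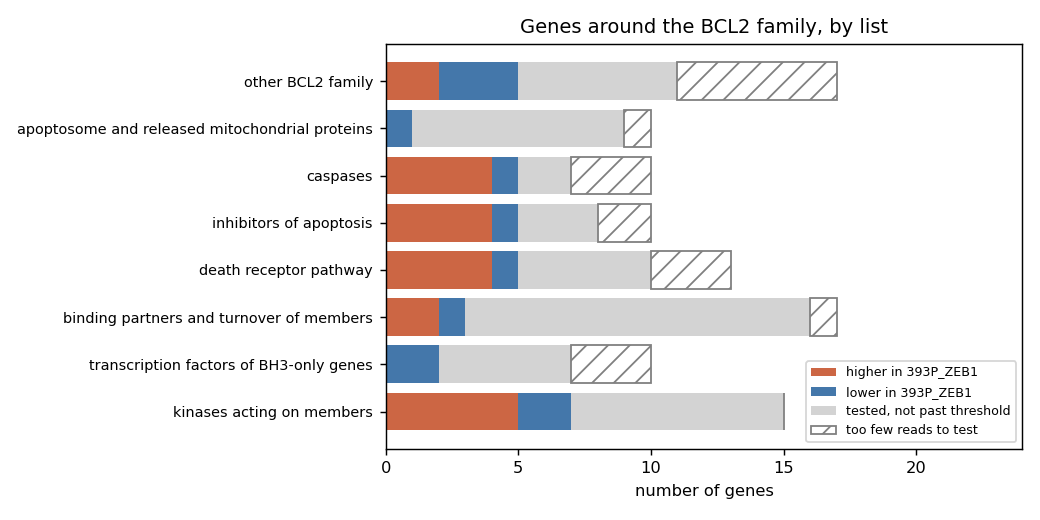
Number of genes higher, lower or not past the threshold in 393P_ZEB1 cells for each of 8 lists (x axis: number of genes, hatched: too few reads to test). Caspases have 4 higher and 1 lower of 7 tested, and the transcription factors have 2 lower of 7 tested. The higher genes include Bcl2l14, Casp12 and Naip6, which passed the filter on low counts only through the 393P_ZEB1 samples.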

How the data were processed

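RNA from 6 samples, 3 of 393P_ZEB1 and 3 of 393P_vector cells, was sequenced from SOLiD total RNA libraries. The authors deposited, per sample, raw counts of reads on 24214 RefSeq features with coordinates and exon lengths, and an RPKM for each. The aligner, the counting program and the use of strand are not given in the sources used here. The counted intervals of all 10 members lay inside the RefSeq gene on GRCm38.p6, with a tolerance of 10 bases at each end. The deposited RPKM values were used only as an alternative for summed levels.

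Counts were filtered with filterByExpr (minimum count 10, leaving 13892 genes), normalized by TMM and tested with edgeR 4.0.16 in R 4.3.3 (robust quasi-likelihood fit, Benjamini-Hochberg over all tested genes). SEs and intervals follow from the F statistic. The fit was also run on simulated data with far fewer changed genes, less spread and no outlying sample. That run does not show how the fit performs on these data. DESeq2 1.42.0 and limma 3.58.1 were alternatives, with other filters, scalings, a replicate block, a fold threshold of 1.5 and each sample left out. Promoters and figures used Python 3.11.15. The floor was 3 counts in every sample, and library size with the TMM factor set its value in CPM. Intervals on counts cover counting error only.

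The members and gene lists were chosen with earlier results of these data known. Named genes are the members, the further BCL2 family genes, and from each other pathway list up to 4 genes past the threshold with the largest fold change and a mean of at least 1 CPM. Dynll1 and Dynll2 were named outside this rule after their values were seen. The values of 1 gene that the rule names are not reported here.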

Additional observations from a re-analysis of the deposited data

How the results depend on the processing

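With 3 samples a group, small changes depend on single samples, and genes near the floor of 3 counts cannot be sized. Of 681 recomputed values over 17 settings, 607 kept their direction and side of the threshold, or stayed within set limits. The limits applied to counts, sums and log2 fold changes less the chromosome median. The changes in Bmf, Mcl1, Bak1 and Zeb1 passed with each sample left out, with ranges of 1.78 to 2.199, 0.43 to 0.58, -0.93 to -0.71 and 1.22 to 1.31. Mcl1 came close to the threshold in these fits, with an edgeR adjusted p of 0.048 without vector replicate 1. The ranges of the log2 fold change were -0.42 to -0.33 for Bid, -0.52 to -0.27 for Bcl2l11, 0.13 to 0.24 for Bcl2, 0.11 to 0.23 for Bad, -0.081 to 0.19 for Bcl2l1 and -0.18 to 0.30 for Bcl2l2. Numbers of members past the threshold ranged from 2 to 3 higher and from 1 to 3 lower, and those of pathway genes from 15 to 30 higher and from 8 to 20 lower, the highest being without 393P_vector replicate 3. The numbers of lower members include Bik in the 4 fits where it passed the filter, through vector samples alone. Of all tested genes 53% passed without 393P_vector replicate 3, and 25.7% to 32.4% without another sample. Against a fold change of 1.5, Mcl1 (0.50), Bak1 (-0.86) and Bid (-0.39) no longer passed by edgeR's test. This left 1 member higher and 0 lower, with 7 and 6 pathway genes, where 15.8% of all tested genes passed. At an unadjusted p under 0.05, 1 member was lower in that edgeR test. DESeq2 with no fold limit gave 2 members lower, where 41.6% of all tested genes passed. limma voom with sample weights gave 4 members higher, 32 pathway genes higher and 21 lower, where 58.1% of all tested genes passed, and passed Bcl2 (0.23), Bcl2l11 (-0.54) and Bad (0.24). It turned Bcl2l1 to -0.041, Bcl2l2 to -0.15, Bax to 0.058 and Bnip3l to -0.035. Bnip3l, at 0.00 in the report, was -0.00056 without a filter, -0.010 with 10 counts in every sample and between -0.10 and 0.061 with a sample left out. Bnip3 was between -0.26 and 0.020 with a sample left out, the highest without 393P_vector replicate 3. Less the chromosome median, Bak1 was -0.43 and Bid -0.030, so neither turned, and this subtraction carries no test. The cause of the turned values was not tested.

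The replicate numbers are shared between groups without a stated pairing. Deviations of same-numbered samples correlated across genes with r of 0.279, -0.205 and -0.0377, and not every sample correlated best with its own number. With the number as a replicate block, Bid (-0.39, edgeR adjusted p = 0.0592) and Tradd (0.43, edgeR adjusted p = 0.0999) no longer passed, leaving 1 member lower where 31.9% of all tested genes passed, and Bnip3l was -0.0039. With that block Mcl1, Bak1, Bmf and Zeb1 still passed.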
